A study of Mus musculus with 15 samples.

Results

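Klotho (Kl) and 7 further genes of renal phosphate handling were followed in the kidneys of 15 male C57BL/6 mice, 5 each at 3, 12 and 24 months of age, with 1 RNA library per mouse. The genes were the phosphate transporters Slc34a1, Slc34a3, Slc20a1 and Slc20a2, the receptor Fgfr1, and the scaffold proteins Pdzk1 and Slc9a3r1. They were chosen by name, and all 8 were found among the 33058 genes of the deposited table. The labels name no engineered allele and no treatment, so age was the variable compared. Kidney tissue was sequenced. The paper describes a kidney cut into pieces and does not say which part was used. The level of a gene was the sum of the FPKM (fragments per kilobase of transcript per 1e+06 mapped fragments) of its transcripts that matched, were contained in, shared a splice junction with or overlapped the annotated exons. The mice are named here by the numbers of their labels, 5 to 9 at 3 months, 17 to 21 at 12 months and 31 to 35 at 24 months.

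The kidney sets the phosphate level of the blood by taking filtered phosphate back up in the proximal tubule. Slc34a1 and Slc34a3 encode the sodium-phosphate cotransporters NaPi-IIa and NaPi-IIc of the brush border, while Slc20a1 and Slc20a2 encode the widely expressed transporters PiT-1 and PiT-2. The bone hormone FGF23 binds a complex of klotho with an FGF receptor and lowers phosphate uptake, and parathyroid hormone does the same through its own receptor. Pdzk1 and Slc9a3r1 (NHERF1) hold NaPi-IIa at the brush border through PDZ domains. Mice that lack klotho or FGF23 have high blood phosphate, calcified vessels and a short life, which is why klotho is often studied in ageing.

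Klotho exists as a membrane protein and as a secreted form whose message reads past the end of exon 3. In the deposited table Kl had 2 transcripts within the rule, Kl-201 (ENSMUST00000078856, 5 exons, annotated as protein coding) and Kl-202 (ENSMUST00000202096, 3 exons, annotated as retained intron). Both are shown here at the point where they part (GRCm38, chromosome 5, plus strand, sequence from GENCODE M21), because the level of each row rests on this difference. The lower-case letters are the last 15 bases of exon 3, chr5:150982757-150982771, and the capitals are the 15 bases that follow in each RNA.
Kl-201, exon 4 from chr5:150988393: gacaactacgttcaaGTGGACACTACTCTC
Kl-202, intron 3 from chr5:150982772: gacaactacgttcaaGTAAGTCCTTTGACA
Read from the annotated start codon, Kl-201 holds 1014 codons before its stop. Kl-202 holds 550, and its stop codon begins at base 46 past the end of exon 3. The annotated Kl-202 runs 4210 bases into intron 3, so reads from unspliced Kl RNA would also fall on it, and the table cannot separate that RNA from a secreted message.

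The level of the 8 genes did not pass the test between any pair of ages after adjustment over all genes tested. In limma on log2(FPKM + 1), 0 of 8 genes had an adjusted p under 0.05 at 24 against 3 months, where 386 of 31755 genes (1.22%) passed. At 12 against 3 months 0 of 8 passed, beside 79 of 31637 genes (0.25%). At 24 against 12 months 0 of 8 passed, beside 1 of 32282 genes (0.0031%). At an unadjusted p under 0.05, 2 of 8 genes passed at 24 against 3 months (Slc34a3 and Slc20a1, both lower at 24 months), where 14.9% of all genes did (3.47% lower and 11.4% higher). That count was 4 with TPM, 1 when levels were scaled to distal tubule markers or summed over annotated transcripts only, and 1 to 3 without 1 mouse. There were 3 of 8 at 12 against 3 months (Fgfr1, Pdzk1 and Slc9a3r1, all higher at 12 months), with 14.3% of all genes (11.4% higher and 2.9% lower), and the count was 1 when scaled to distal tubule markers. There were 2 of 8 at 24 against 12 months (Kl and Slc34a3, both lower at 24 months), with 6.43% of all genes (3.36% lower and 3.07% higher). This count was 0 with TPM, with either tubule scaling and with annotated transcripts only, and 0 to 3 without 1 mouse. With an absolute log2 fold change above 1 asked for as well, a rule added after seeing the data, 0 of 8 passed in any comparison, beside 0.523%, 0.499% and 0.17% of all genes. The ages overlapped for all 8 genes at 24 against 3 months, where 4.73% of all genes did not overlap, and at 24 against 12 months, where 1.07% did not. The median log2 fold change of the 8 genes was 0.04, 0.15 and -0.17 in these comparisons, and that of all genes tested was 0.02, 0.02 and -0.001. Each pair of these comparisons shares the mice of 1 age, so their values are not independent. All fold changes below are on the FPKM + 1 scale, which makes the change of a low gene smaller.

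**Figure D1:**
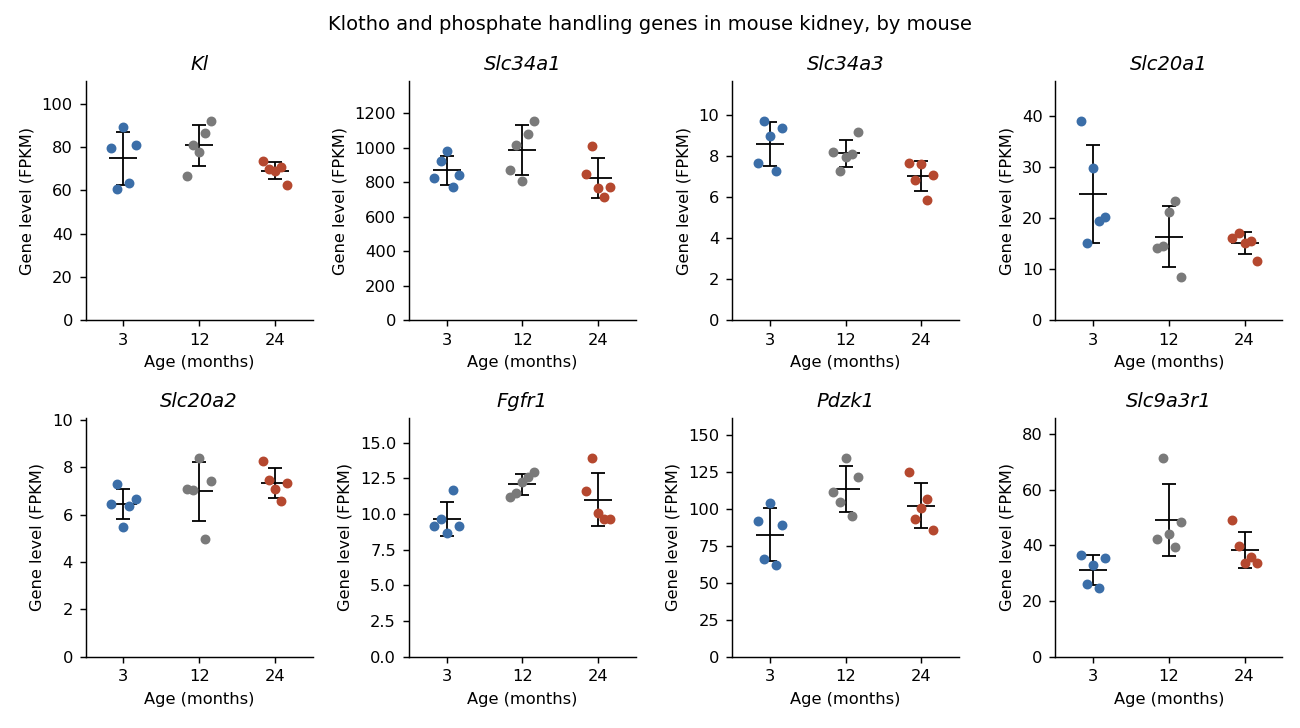
Gene level in FPKM (vertical axes, from 0) against age in months for the 8 genes, with 1 point per mouse, the mean as a bar and the SD as whiskers (n = 5 per age). Slc9a3r1 at 12 months lies above every 3-month mouse, and for the other genes the points of the 3 ages overlap.

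The order of the levels per kilobase was steep. Slc34a1 led with a mean of 892 FPKM over the 15 mice (range 716 to 1155), higher than every other of the 8 genes in 15 of 15 mice. Pdzk1 followed with 99.5 FPKM, Kl with 75 and Slc9a3r1 with 39.6. Pdzk1 was above Kl in 14 of 15 mice, and Kl was above Slc9a3r1 in 15 of 15. Slc20a1 (18.7 FPKM) was below Slc9a3r1 and above Fgfr1 (10.9 FPKM) in 14 of 15 mice each. The neighbours Fgfr1 and Slc34a3 (7.92 FPKM) kept their order in 12 of 15 mice. Slc34a3 and Slc20a2 (6.93 FPKM) kept theirs in 10 of 15, so the last places were not separated in every mouse. At 24 months the mean of Slc20a2 (7.35 FPKM) was above that of Slc34a3 (7.02 FPKM). The message of NaPi-IIa was far more abundant than that of NaPi-IIc at every age.

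Kidney tissue mixes many cell types, and fewer cells of a type and less RNA per cell cannot be told apart in these values. The tissue label was met by its markers. The summed level of 10 proximal tubule markers (Lrp2, Cubn, Slc5a2 and others) was 1610 to 2030 FPKM at 3 months, 1470 to 1710 at 12 months and 1510 to 1710 at 24 months. Of these markers 0 passed the adjusted test at 24 against 3 months, 3 were lower and 1 was higher at an unadjusted p under 0.05 (beside 3.47% and 11.4% of all genes), and their median log2 fold change was -0.13. Of 7 markers of the distal convoluted and connecting tubule, where klotho is most abundant, 1 passed, beside 1.22% of all genes. This was Trpv5, the calcium channel of the apical membrane, with 5.52 FPKM at 3 months and 3.29 at 24 months (log2 fold change -0.60, adjusted p = 0.0146). The call was kept in all 10 fits that left out 1 mouse (limma adjusted p up to 0.0427). It ended with annotated transcripts only (-0.47, adjusted p = 0.598) and with a library covariate (-0.65, adjusted p = 0.0887). It also ended when levels were scaled to distal markers (-0.54, adjusted p = 0.567). Those markers include Trpv5, so that scaling takes up part of its own change and is no independent check. The summed level of these 7 ranged from 295 to 544 FPKM at 3 months, from 367 to 512 at 12 months and from 285 to 499 at 24 months. Aligned bases were 5.03 to 6.13 Gb per library at 3 months, 5.84 to 8.03 at 12 months and 6.07 to 7.33 at 24 months, and the median was lowest at 3 months.

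The level of Kl, the FGF23 co-receptor (chr5:150952607-150993817, plus strand), was 79.6, 60.7, 89.5, 63.6 and 80.8 FPKM in the 3-month mice. It was 66.6, 80.9, 77.9, 86.5 and 92.2 FPKM in the 12-month mice. In the 24-month mice it was 73.6, 69.8, 69.1, 70.9 and 62.7 FPKM. All 24-month mice lay within the range of the 3-month mice, and their spread was smaller (SD 4.03 against 12.3 FPKM, n = 5 each). The mean was 69.2 FPKM at 24 months and 74.8 at 3 months, a fold change of 0.935 (95% confidence interval 0.783 to 1.11, adjusted p = 0.708). Against 12 months (80.8 ± 9.65 FPKM, SD, n = 5), the 24-month level was 0.862-fold (0.748 to 0.992), with an unadjusted p of 0.0407 in limma and an adjusted p of 0.759. The direction at 24 against 3 months turned when levels were scaled to the proximal tubule markers (log2 fold change 0.04) or a library covariate was added (0.05), and the direction at 24 against 12 months turned under scaling to distal markers (0.04).

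Nearly all of the Kl signal within the rule was in Kl-201. A further Kl row past the 3′ end of the gene (MSTRG.29362.1) lay outside the rule and was not summed. It had 1.06, 0.72 and 1.48 FPKM at 3, 12 and 24 months. Kl-201 was far above it. The mean of Kl-201 was 74.4 FPKM at 3 months, 80.3 at 12 months and 69.0 at 24 months. Kl-202 was listed at 0.243, 0.381, 0.340, 0.596 and 0.521 FPKM in the 3-month mice. It was at 0.243, 0.181, 0.0948, 0.128 and 1.95 FPKM in the 12-month mice and at 0.112, 0.234, 0.0611, 0.162 and 0.262 FPKM in the 24-month mice. The 24-month values were low, with 4 of 5 under every 3-month mouse, and 1 mouse of 12 months (number 21) stood far above all others. Kl-202 made up 0.579% ± 0.249 of Kl FPKM at 3 months, 0.595% ± 0.855 at 12 months and 0.244% ± 0.134 at 24 months (SD, n = 5). Between 24 and 3 months the share differed with p = 0.0397 in an exact permutation test (2-sided, not adjusted), and the level with p = 0.0159. In limma over 124719 transcripts the adjusted p of Kl-202 was 0.580, so the difference did not pass. Over the 8 genes 0 transcripts passed after adjustment in any comparison, beside 0.0192%, 0.00481% and 0.00559% of all transcripts. At an unadjusted p under 0.05 it was 8 of 66 at 24 against 3 months (4 higher and 4 lower, beside 7.9% of all transcripts), 8 of 65 at 12 against 3 months (6 higher and 2 lower, beside 7.46%) and 1 of 67 at 24 against 12 months (lower, beside 4.47%). Kl-201 itself had a log2 fold change of -0.09 at 24 against 3 months (95% confidence interval -0.42 to 0.23).

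**Figure D2:**
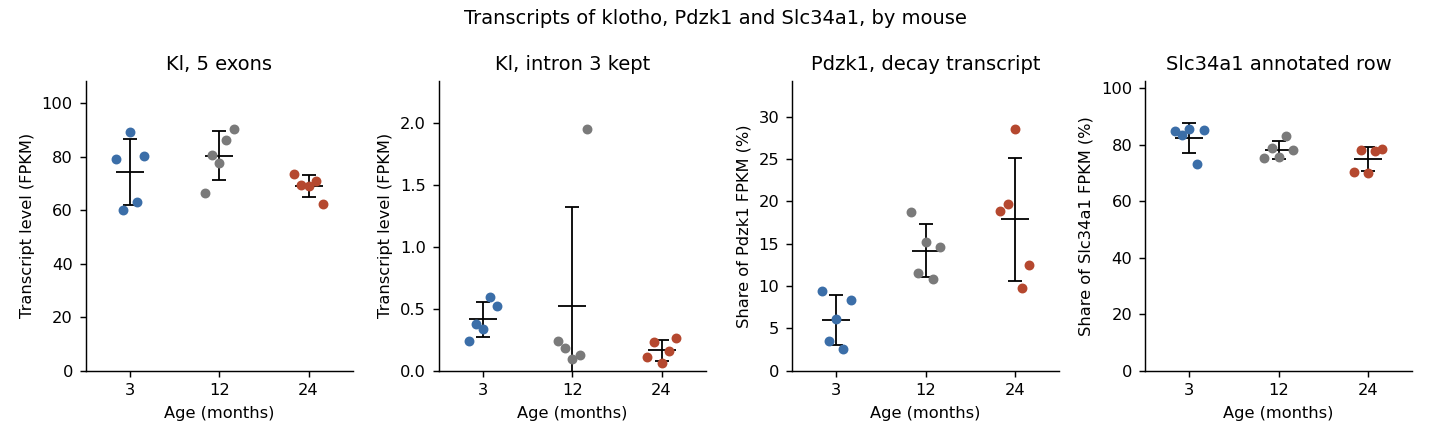
Level or share (vertical axes, from 0) against age in months for the 5-exon Kl transcript (Kl-201) and the one that keeps intron 3 (Kl-202) in FPKM, and for the Pdzk1 transcript marked for decay (ENSMUST00000153256) and the annotated Slc34a1 transcript in percent of their gene's FPKM, with 1 point per mouse, the mean as a bar and the SD as whiskers (n = 5 per age; the axis hides the part of a whisker below 0). The Pdzk1 share at 12 and 24 months lies above every 3-month mouse.

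Circular RNAs are formed when an exon end is joined back to an upstream exon start, and the authors deposited estimated counts and FPKM for 11929 of them. Of these, 12 came from 5 of the 8 genes, including 2 from Kl. The junctions of both Kl circles are shown because they begin at the same exon 2 and differ only in the exon that closes them. The lower-case letters are the last 15 bases of the closing exon and the capitals are the first 15 bases of exon 2, from chr5:150980610.
circRNA2800, end of exon 4 at chr5:150989494: atgaggctctgaaagGCTCATGCCAAAGTC
circRNA8483, end of exon 3 at chr5:150982771: gacaactacgttcaaGCTCATGCCAAAGTC
The circle of exons 2 to 4 (circRNA2800) had an FPKM of 92.6 ± 12.2 at 3 months, 94.1 ± 9.57 at 12 months and 80.8 ± 6.11 at 24 months (SD, n = 5). Its FPKM was 1.10 to 1.34 times that of the linear gene in each mouse. It followed the gene across the 15 mice with r = 0.92, given as a description since both come from the same library. The circle of exons 2 and 3 (circRNA8483) had 86.1 ± 17.2, 91.8 ± 9.49 and 80.9 ± 6.75 FPKM, and 1.01 to 1.24 times the linear level. How reads were counted for the circles is not given in the sources used here, and whether reads of linear Kl RNA are part of these values was not tested.

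No circular RNA of the 8 genes passed the test between 24 and 3 months. In edgeR's quasi-likelihood test 0 of 12 circles had an adjusted p under 0.05, beside 1582 of 11924 circles (13.3%), and 1 of 12 had an unadjusted p under 0.05, beside 28.8%. DESeq2 also called 0 of 12. The log2 fold changes of the Kl circles were -0.15 (circRNA2800, adjusted p = 0.455) and -0.04 (circRNA8483, adjusted p = 0.889). The circle with the smallest p was ciRNA281, an intronic circle of Slc34a1 (chr13:55412373-55413133). It was at 2.72, 9.86, 6.92, 9.04 and 6.59 FPKM in the 3-month mice, at 9.60, 13.75, 8.96, 12.92 and 15.73 FPKM in the 12-month mice and at 11.52, 8.95, 11.47, 7.85 and 10.47 FPKM in the 24-month mice. Mouse 5 was the lowest of all, and mice 6 and 8 of 3 months lay within the 24-month range. The log2 fold change was 0.59 (edgeR, adjusted p = 0.123). ciRNA281 reached only 0.00331 to 0.0149 times the linear Slc34a1 level. The exonic circles circRNA53, circRNA6324 and circRNA6955 of the same gene reached 1.27 to 1.83, 1.74 to 2.37 and 0.603 to 0.939 times that level. Of these, circRNA6324 had a log2 fold change of -0.23 (adjusted p = 0.217), and without mouse 32 the value was -0.34 with an adjusted p of 0.0365.

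**Figure D3:**
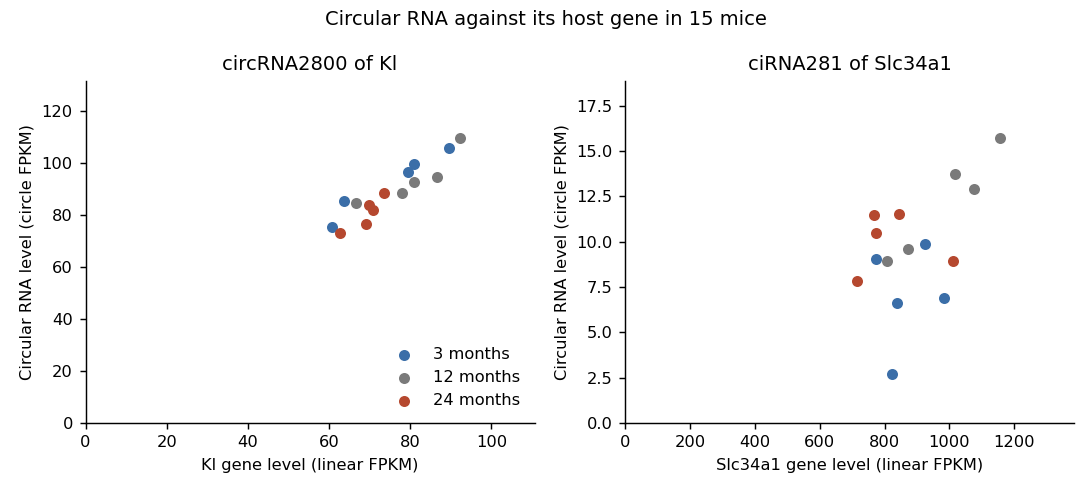
FPKM of a circular RNA (vertical axis) against the linear FPKM of its gene (horizontal axis) in 15 mice, coloured by age, for circRNA2800 of Kl and the intronic ciRNA281 of Slc34a1. The Kl circle is higher where the gene is higher (r = 0.92), and the points of ciRNA281 are more scattered (r = 0.53).

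Slc34a1 (NaPi-IIa, chr13:55398187-55415592, plus strand) carries most of the phosphate uptake of the mouse kidney. It stood at 822, 924, 983, 773 and 839 FPKM in the 3-month mice. The 12-month mice had 873, 1017, 808, 1077 and 1155 FPKM. The 24-month mice had 844.5, 1012, 768, 716 and 772 FPKM. The ages overlapped, although 3 of 5 mice of 12 months lay above all 3-month mice and 3 of 5 of 24 months lay below all of them. The fold change was 0.944 at 24 against 3 months (95% confidence interval 0.694 to 1.28, adjusted p = 0.862), 1.13 at 12 against 3 months (0.814 to 1.57) and 0.835 at 24 against 12 months (0.625 to 1.12). The direction at 24 against 3 months turned when levels were scaled to proximal tubule markers (log2 fold change 0.05) or to distal ones (0.01).

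The Slc34a1 signal was divided among 3 transcripts. The annotated one (ENSMUST00000057167, 13 exons) had a mean of 718 FPKM at 3 months, 774 at 12 months and 618 at 24 months. An assembled transcript of 12 exons and 9375 bases (MSTRG.9807.1) had 140 FPKM at 3 months, 201 at 12 months and 190 at 24 months. Another assembled one (MSTRG.9807.2) had 10.8, 11.4 and 14.6 FPKM at the 3 ages. In single mice the annotated transcript took 73.1% to 85.5% of the gene at 3 months, 75.3% to 83.2% at 12 months and 70.1% to 78.5% at 24 months. Its mean share was 82.4% ± 5.26 at 3 months, 78.2% ± 3.16 at 12 months and 75% ± 4.37 at 24 months (SD, n = 5). The share at 24 months was lower than at 3 months with an exact permutation p of 0.0397 (2-sided, not adjusted), and mouse 8 at 3 months fell into the 24-month range. In limma the log2 fold changes at 24 against 3 months were -0.22 for the annotated transcript and 0.45 for MSTRG.9807.1 (adjusted p = 0.686 for the latter), so neither passed. StringTie divides reads between transcripts that share exons, so the rows of 1 gene are not measured independently.

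Slc34a3 (NaPi-IIc, chr2:25228898-25234364, minus strand) was listed at 7.67, 9.73, 8.99, 7.30 and 9.36 FPKM in the 3-month mice. The 12-month mice had 8.20, 7.29, 7.945, 8.12 and 9.16 FPKM, and the 24-month mice 7.69, 6.82, 7.60, 5.87 and 7.11 FPKM. The oldest mice were low, with 3 of 5 below every 3-month and every 12-month mouse. The mean was 7.02 ± 0.736 FPKM at 24 months and 8.61 ± 1.07 at 3 months (SD, n = 5), a fold change of 0.835 (95% confidence interval 0.718 to 0.972). The exact permutation p was 0.0397, limma's unadjusted p was 0.0246 and its adjusted p was 0.249, so the difference did not pass over all genes. At 24 against 12 months the fold change was 0.875 (0.770 to 0.995, adjusted p = 0.764), and at 12 against 3 months it was 0.954 (0.829 to 1.10). The value at 24 against 3 months kept its sign under every scaling, filter and left-out mouse tried, with log2 fold changes of -0.31 to -0.205 when single mice were left out. The sign turned at 24 against 12 months when scaled to distal markers (0.04) and at 12 against 3 months when scaled to proximal ones (0.04). The transcript with the highest mean at each age was MSTRG.18962.1, an assembled one that extends past the annotated 3′ end of the gene, with 3.81, 3.53 and 2.55 FPKM at the 3 ages.

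Slc20a1 (PiT-1, chr2:129198764-129211616, plus strand) varied most between young mice. It was at 39.0, 15.01, 29.8, 19.4 and 20.15 FPKM in the 3-month mice, at 14.1, 14.55, 21.2, 23.3 and 8.501 FPKM in the 12-month mice and at 16.1, 17.1, 15.15, 15.5 and 11.6 FPKM in the 24-month mice. The high 3-month mean rested on mice 5 and 7, and mouse 6 was lower than 4 of the 5 mice of 24 months. The fold change was 0.657 at 24 against 3 months (95% confidence interval 0.458 to 0.942, exact permutation p = 0.0397, limma adjusted p = 0.257). When single mice were left out the log2 fold change ranged from -0.76 to -0.43. At 12 against 3 months it was 0.676-fold (0.419 to 1.09) and at 24 against 12 months 0.971-fold (0.672 to 1.40). Of its 10 transcripts, 3 were lower at 24 than at 3 months at an unadjusted p under 0.05 (beside 7.9% of all transcripts in either direction), by log2 fold changes of -0.75 (ENSMUST00000140907), -0.77 (ENSMUST00000144744) and -0.88 (ENSMUST00000110315), and 0 passed after adjustment.

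Slc20a2 (PiT-2, chr8:22476788-22569612, plus strand) had the lowest level. It ranged from 5.50 to 7.31 FPKM at 3 months, from 4.98 to 8.42 at 12 months and from 6.56 to 8.27 at 24 months. Its fold change at 24 against 3 months was 1.12 (95% confidence interval 0.987 to 1.27, adjusted p = 0.397). The sign of this value turned when only annotated transcripts were summed (log2 fold change -0.13), which leaves out 4 of its 6 transcripts. Of those kept, ENSMUST00000067786 (11 exons) had a mean of at most 0.0125 FPKM at any age. The annotated sum therefore rested on ENSMUST00000210388, a row of 1 exon with 1.58, 1.32 and 1.36 FPKM at 3, 12 and 24 months. The Slc20a2 circles circRNA4690 and circRNA1253 had log2 fold changes of 0.10 and -1e-04 at 24 against 3 months (edgeR, adjusted p = 0.505 and 0.999).

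Fgfr1, a receptor that klotho turns into an FGF23 receptor (chr8:25513654-25575718, plus strand), was at 9.19, 9.66, 8.68, 11.7 and 9.14 FPKM in the 3-month mice. It was at 11.2, 11.5, 12.2, 12.6 and 13.0 FPKM in the 12-month mice and at 11.65, 13.96, 10.05, 9.67 and 9.63 FPKM in the 24-month mice. The 12-month mice were high and close together, and mouse 8 was the 3-month mouse that reached their range. The fold change was 1.23 at 12 against 3 months (95% confidence interval 1.08 to 1.40, exact permutation p = 0.0238, limma adjusted p = 0.148). It was 1.12 at 24 against 3 months (0.937 to 1.34, adjusted p = 0.567). Fgfr1 is also expressed by fibroblasts. The summed level of 4 stroma markers (Col1a1, Col3a1, Pdgfrb and Dcn) was 15.1 to 39.9 FPKM at 3 months, 38.5 to 64.4 at 12 months and 29.2 to 48.9 at 24 months. All 4 were higher at 12 than at 3 months at an unadjusted p under 0.05 (beside 11.4% of all genes), and 0 passed after adjustment. Their part in the Fgfr1 level was not tested. Fgfr1 had 21 transcripts within the rule, of which 4 reached a mean of 1 FPKM at any age, and 3 further rows lay inside its introns and were not summed.

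Pdzk1 (chr3:96829284-96870926, plus strand), which encodes a scaffold protein of the brush border, was at 91.8, 66.2, 104, 62.1 and 89.3 FPKM in the 3-month mice. It was at 111, 104.5, 135, 95.3 and 122 FPKM in the 12-month mice and at 125, 93.1, 101, 107 and 85.7 FPKM in the 24-month mice. At 12 months 4 of 5 mice lay above all 3-month mice. The fold change was 1.39 at 12 against 3 months (95% confidence interval 1.08 to 1.78, exact permutation p = 0.0159, limma adjusted p = 0.228) and 1.25 at 24 against 3 months (0.969 to 1.61, adjusted p = 0.409).

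Within Pdzk1 the transcripts differed more than the gene. ENSMUST00000153256 (10 exons, annotated as subject to nonsense-mediated decay) was listed at 8.61, 2.34, 6.29, 1.57 and 7.44 FPKM in the 3-month mice. It was at 20.9, 12.1, 20.5, 10.3 and 17.8 FPKM in the 12-month mice and at 23.6, 18.4, 28.7, 10.4 and 10.7 FPKM in the 24-month mice. Every mouse of 12 and 24 months lay above every 3-month mouse, whereas 2.13% of all transcripts tested did not overlap between 24 and 3 months and 1.85% between 12 and 3 months. Between 24 and 12 months it overlapped, and 0.782% of all transcripts did not. Its share of Pdzk1 FPKM was 5.96% ± 2.96 at 3 months, 14.2% ± 3.17 at 12 months and 17.9% ± 7.28 at 24 months (SD, n = 5). Both older ages differed from 3 months with an exact permutation p of 0.00794, the smallest that 5 against 5 mice can give, and not adjusted for the number of transcripts looked at. In limma over all transcripts the log2 fold change of its level was 1.71 at 24 against 3 months (95% confidence interval 0.74 to 2.68, adjusted p = 0.334) and 1.60 at 12 against 3 months (0.72 to 2.48, adjusted p = 0.415). Between 24 and 12 months the shares overlapped, with an exact permutation p of 0.357.

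ENSMUST00000058865 (9 exons, protein coding) took 33.8% ± 22.1 of Pdzk1 FPKM at 3 months, 15.1% ± 9.27 at 12 months and 15.4% ± 9.44 at 24 months (SD, n = 5). Its share ran from 9.38% to 64.2% among the 3-month mice alone, and the exact permutation p was 0.135 at 24 against 3 months. The remaining signal was spread over 13 other rows, 9 of them assembled. One of these, MSTRG.23013.1, had the highest mean of all Pdzk1 rows at 12 and 24 months. It starts at chr3:96823914 and had 17.7 ± 14.9, 29.7 ± 4.33 and 25.3 ± 13.3 FPKM at 3, 12 and 24 months (SD, n = 5). Its log2 fold change at 24 against 3 months was 1.02 (limma adjusted p = 0.727). ENSMUST00000153256 begins at chr3:96832171 and ENSMUST00000058865 at chr3:96830076, and RefSeq lists a start of Pdzk1 near each. The 100 bases before each RefSeq start are shown because these rows are read from different starts (GRCm38.p6, plus strand).
Before chr3:96830065, next to the start of ENSMUST00000058865: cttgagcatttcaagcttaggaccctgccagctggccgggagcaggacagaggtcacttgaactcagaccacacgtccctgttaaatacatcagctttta
Before chr3:96832171, the start of ENSMUST00000153256: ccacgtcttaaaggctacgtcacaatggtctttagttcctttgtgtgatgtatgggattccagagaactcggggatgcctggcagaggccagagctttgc
Neither stretch holds the letters TATAAA or CCAAT on either strand (motifs that do not overlap each other), which 5.56% and 18.9% of 32851 RefSeq promoter windows of the same length hold. RefSeq promoters were found for 6 of the 8 genes.

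Slc9a3r1 (NHERF1, chr11:115163341-115181181, plus strand) was the gene whose ages parted. It was at 36.7, 26.04, 33, 24.5 and 35.5 FPKM in the 3-month mice, at 42.4, 71.5, 44.0, 39.5 and 48.3 FPKM in the 12-month mice and at 49.2, 39.8, 33.7, 35.8 and 33.7 FPKM in the 24-month mice. All 12-month mice were above all 3-month mice, and the 24-month mice lay between and overlapped both. It was the only one of the 8 genes without overlap in this comparison, and 4.11% of all genes did not overlap. The fold change was 1.54 at 12 against 3 months (95% confidence interval 1.17 to 2.03, exact permutation p = 0.00794, limma adjusted p = 0.157). It was 1.23 at 24 against 3 months (0.982 to 1.54, adjusted p = 0.384) and 0.796 at 24 against 12 months (0.613 to 1.03, adjusted p = 0.809). Without mouse 18, which had the highest value, the log2 fold change at 12 against 3 months was 0.48, and 0.63 with it. The gene had 1 transcript, so no division between rows affects it. A test of whether the step from 3 to 12 months differed from the step from 12 to 24 months gave a difference of 0.95 on the log2 scale (95% confidence interval 0.33 to 1.58, unadjusted p = 0.00547 in limma, adjusted p = 0.368). The test was run for each of the 8 genes, and Slc9a3r1 had the smallest p of them. Pdzk1 and Fgfr1 had differences of 0.62 and 0.44 (limma adjusted p = 0.521 and 0.489). That test was past an adjusted p of 0.05 for 0 of 33058 genes.

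**Figure D4:**
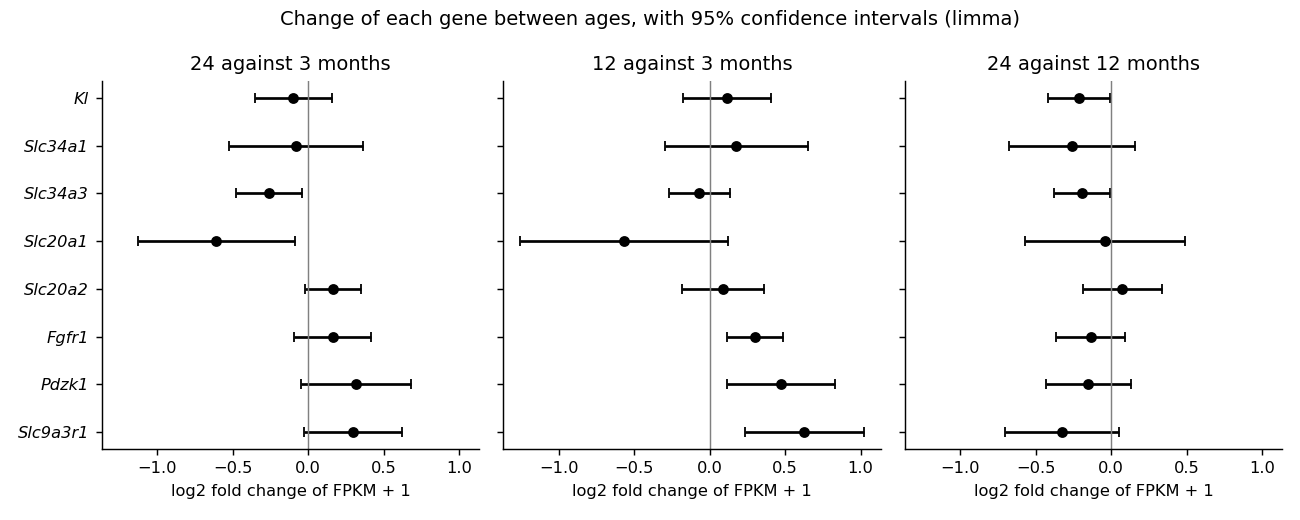
Log2 fold change of FPKM + 1 (horizontal axes) for the 8 genes in the 3 comparisons of ages, with limma's 95% confidence intervals as bars. The intervals of Slc34a3 and Slc20a1 lie below 0 at 24 against 3 months and those of Fgfr1, Pdzk1 and Slc9a3r1 above 0 at 12 against 3 months, before any adjustment for the number of genes.

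The levels of the 8 genes were also compared with each other across the 15 mice, in 28 pairs. The closest pair was Pdzk1 and Slc9a3r1 (Pearson's r = 0.73, permutation p = 0.00245, adjusted p = 0.0686, and Spearman's rho = 0.75, permutation p = 0.0021, adjusted p = 0.0588). Within ages (each age centred) r was 0.51 (permutation p = 0.0716), and without the 2 mice farthest from the median of Pdzk1 it was 0.47. Kl and Slc34a1 had r = 0.59 (permutation p = 0.0223, adjusted p = 0.309, and rho = 0.56, permutation p = 0.0337), 0.45 within ages and 0.39 without the 2 farthest mice. Within ages the closest pair was Kl and Pdzk1 (r = 0.66, permutation p = 0.0338, adjusted p = 0.671), with r = 0.55 over all mice (permutation p = 0.0332, adjusted p = 0.309, and rho = 0.45, permutation p = 0.096) and 0.50 without the 2 farthest mice. No pair of the 28 passed after adjustment.

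For Kl, Slc34a1 and Slc34a3 the most similar profiles were looked up among 13445 other genes with a mean of at least 1 FPKM. For Kl these were Tmem214 (r = 0.88), Slc22a28 (r = 0.86) and Spsb2 (r = 0.84), which within ages took places 6, 5 and 14. For Slc34a1 they were Ppp2r3d (r = 0.95), Fgfr4 (r = 0.91) and Slc4a2 (r = 0.90). Fgfr4, a member of the FGF receptor family, lies on the same chromosome as Slc34a1 (chr13:55152640-55168759), and its level was 11.9 to 20.98 FPKM. Within ages Ppp2r3d, Fgfr4 and Slc4a2 took places 1, 4 and 2 of the genes closest to Slc34a1. For Slc34a3 they were Npdc1 (r = 0.86), Eif4g3 (r = 0.83) and Gm24407 (r = 0.83), and within ages these fell to places 95, 110 and 139. These coefficients are the highest of many and are given without a test.

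The wider phosphate pathway was described by gene lists. Among 12 genes of FGF23 and klotho signalling, 1 was higher and 0 lower at 24 against 3 months after adjustment, beside 1.22% of all genes in either direction. The median log2 fold change of the 12 was 0.001. The gene was Fgfr3, another FGF receptor, at 6.79, 8.74, 7.31, 6.51 and 6.64 FPKM in the 3-month mice and 10.9, 10.5, 11.1, 9.68 and 9.81 FPKM in the 24-month mice. The 24-month mice were all above the 3-month mice (log2 fold change 0.48, adjusted p = 0.0333). Of all genes, 4.73% did not overlap between these ages, in either direction. The call was lost in 9 of 10 fits that left out 1 mouse, with adjusted p-values up to 0.0783. At 12 months Fgfr3 had a mean of 9.64 FPKM. Fgfr1 and Fgfr4 had log2 fold changes of 0.16 and 0.02 in the comparison of 24 against 3 months, and Fgfr2 of -0.19 (adjusted p = 0.571). Egr1, an early response gene that FGF23 induces, had a log2 fold change of -1.98 with an adjusted p of 0.237. It was at 21.75, 6.05, 25.3, 18.7 and 32.55 FPKM at 3 months and at 2.44, 23.9, 7.21, 1.41 and 0.741 FPKM at 24 months. The Egr1 values spread widely within each age, and mice 32 and 33 were in the range of the 3-month mice. Fgf23 itself is made in bone and its mean here was at most 0.00551 FPKM at any age. Klb, which encodes the related co-receptor beta-klotho, had at most 0.0657 FPKM.

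Of 6 phosphate transporters 0 passed the adjusted test in any comparison, and of those that were not among the 8 genes, the exporter Xpr1 had 34, 31.7 and 34.8 FPKM and Slc34a2 1.79, 2.55 and 1.99 FPKM at 3, 12 and 24 months. Of 8 brush border scaffold genes 0 passed, with a median log2 fold change of 0.06 at 24 against 3 months. Of 3 proteases that shed klotho from the membrane 0 passed, and Adam10, Adam17 and Bace1 had log2 fold changes of -0.001, 0.05 and -0.02. Of 7 genes of PTH signalling 0 passed, and the receptor gene Pth1r had 82.8, 97.6 and 86.5 FPKM. In that list Pth2r had an unadjusted p under 0.05 at a mean of at most 0.0635 FPKM. Of 6 measured genes of FGF23 production and processing 0 passed. Fam20c, the kinase of secreted proteins, had 9.11 FPKM at 3 months and 6.18 at 24 months (log2 fold change -0.47, adjusted p = 0.180), and Phex, with an unadjusted p under 0.05, had a mean of at most 0.0620 FPKM.

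Of 6 vitamin D genes 0 passed. The mean of Cyp24a1, the enzyme that breaks down active vitamin D and is induced by FGF23, was 28.8 FPKM at 3 months, 50.7 at 12 months and 56.8 at 24 months. Its single values were 20.2, 67.4, 19.65, 25.6 and 11.1 FPKM at 3 months and 82.45, 36.5, 89.01, 57.2 and 19.01 FPKM at 24 months, which overlap widely (log2 fold change 1.02, adjusted p = 0.414). Cyp27b1, which makes active vitamin D, had 3.82, 4.44 and 6.05 FPKM (adjusted p = 0.526 at 24 against 3 months). Among 6 genes of pyrophosphate and calcification 1 was higher at 24 against 3 months after adjustment, beside 1.22% of all genes in either direction. This was Abcc6, a transporter needed for the release of the calcification inhibitor pyrophosphate, at 2.47, 3.29, 3.13, 2.30 and 3.12 FPKM in the 3-month mice and 5.72, 5.48, 5.43, 3.73 and 4.89 FPKM in the 24-month mice. All 24-month mice lay above all 3-month mice (log2 fold change 0.64, adjusted p = 0.0416), beside 4.73% of all genes without overlap in either direction. The call was lost in 9 of 10 fits that left out 1 mouse, with adjusted p-values up to 0.0933. At 12 months Abcc6 had a mean of 4.52 FPKM.

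**Figure D5:**
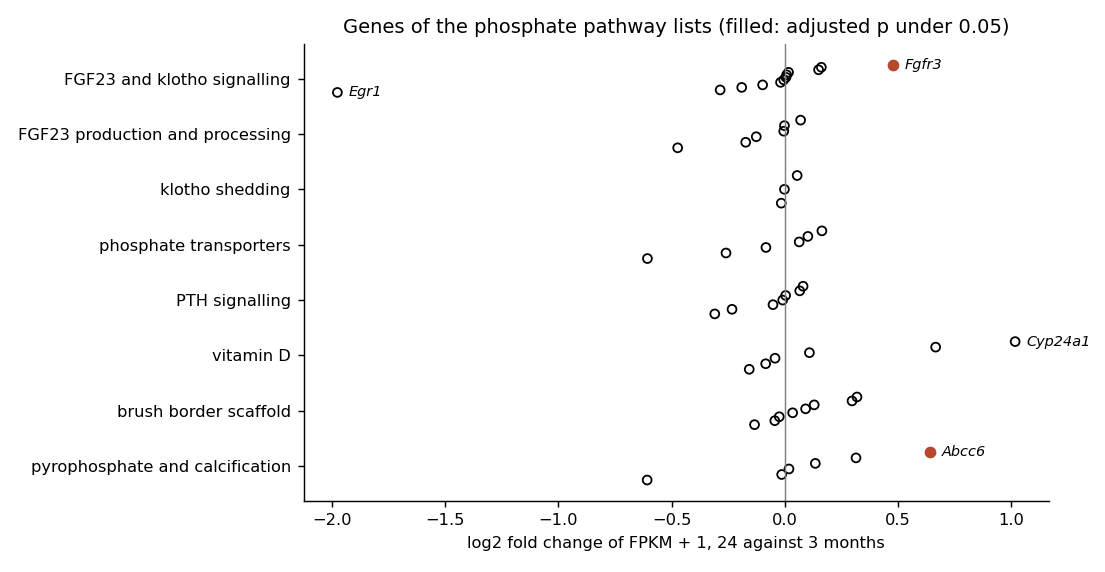
Log2 fold change of FPKM + 1 at 24 against 3 months (horizontal axis) for each measured gene of 8 lists of the phosphate pathway (rows), with filled points for an adjusted p under 0.05. Fgfr3 and Abcc6 are filled, and the other genes, Kl and the phosphate transporters included, are open and mostly within 0.5 of 0.

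Other cell types were followed by their markers. At 24 against 3 months 0 markers passed the adjusted test in the lists of thick limb, collecting duct, podocyte, endothelial, stroma, macrophage, lymphocyte, tubular injury, urothelium, and adrenal and fat cells, and in the list of the straight proximal tubule. At an unadjusted p under 0.05, 4 of 5 lymphocyte markers, 2 of 4 stroma markers, 1 of 4 endothelial markers and 1 of 4 adrenal and fat markers were higher at 24 months, beside 11.4% of all genes. At 12 against 3 months, where Fgfr1, Pdzk1 and Slc9a3r1 were higher, 0 markers of any list passed the adjusted test. At an unadjusted p under 0.05, 2 of 4 tubular injury markers, 2 of 5 lymphocyte markers, 1 of 4 macrophage markers and 1 of 3 adrenal and fat markers were higher in that comparison, as were the 4 stroma markers, beside 11.4% of all genes. In the same comparison 2 of 5 thick limb markers, 1 of 6 collecting duct markers and 1 of 7 distal tubule markers were lower, beside 2.9% of all genes. The summed level of the injury markers was 6.75 to 21.4 FPKM at 3 months, 9.72 to 45.6 at 12 months and 11.6 to 19.4 at 24 months. The summed lymphocyte level was 1.49 to 5.44 FPKM at 3 months, 4.41 to 10.2 at 12 months and 4.83 to 8.86 at 24 months. Collecting duct markers summed to 62.6 to 189 FPKM at 3 months, 54.8 to 84.6 at 12 months and 48.1 to 93.0 at 24 months. The part of these cell types in the values of the 8 genes was not tested.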

How the data were processed

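Total RNA of kidney tissue from 15 mice was sequenced, 1 library per mouse. Per the labels, ribosomal RNA was removed and stranded libraries were made, while the study's methods describe oligo(dT) beads. The methods give Cutadapt for trimming and Bowtie2 with HISAT2 for mapping to GRCm38 with Ensembl annotation. The authors deposited StringTie FPKM and coverage for each transcript. The submitters' processing notes name TopHat2, StringTie and TopHat. The deposited coverage divided by FPKM gave each library's aligned bases (5.03 to 8.03 Gb), and no counting intervals were possible. For circular RNAs the deposited values were estimated counts and FPKM (totals of 6974494 to 9889971 per mouse), made by a method not given in the sources used here. The counts were rounded here for testing.

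Gene sums and transcripts above 0 in at least 1 mouse compared were tested with limma 3.58.1 (lmFit, eBayes with trend) in R 4.3.3 on log2(FPKM + 1), with only both ages compared in the fit and Benjamini-Hochberg adjustment over all features. The study's DESeq2 and edgeR need counts. Circular RNAs needed a value above 0 in 5 or more of the 10 mice and were tested with edgeR 4.0.16 (quasi-likelihood, TMM), and again with DESeq2 1.42.0. For single values there were exact permutation tests (252 assignments), and for pairs of genes 100000 permutations (scipy 1.17.1). The fits were tested on simulated data.

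The members and lists were chosen with earlier results of these data known. Named were the 8 genes, every Kl transcript and a selection of the other transcripts of at least 1 FPKM. Not all transcripts past an unadjusted p of 0.05 are described. Left out were, for example, MSTRG.23013.9 of Pdzk1 and ENSMUST00000117179 of Fgfr1, with log2 fold changes of 0.65 and 0.92 at 24 against 3 months. Also named were pathway list genes past an unadjusted p of 0.05 at 24 against 3 months or an adjusted one anywhere. Cell type markers were given by list, and by name where a call rests on them. The 3 most similar genes to Kl, Slc34a1 and Slc34a3 were named as well. List genes given beside these (Fgfr2, Fgfr4, Fgf23, Klb, Xpr1, Slc34a2, Adam10, Adam17, Bace1, Pth1r, Cyp24a1 and Cyp27b1) were picked once their values were known. The Pdzk1 and Slc34a1 transcripts whose shares were tested were chosen likewise. Labels give ages, and titles begin with 3M at all ages. Nothing in the labels says how the mice of an age were kept, so p-values measure the spread between these animals. Alternatives were another pseudocount (0.1), a minimum mean of 1 FPKM, TPM, median-ratio and marker scaling, annotated transcripts, all 15 mice in 1 fit, a library covariate, a robust prior and leaving out each mouse. The library covariate was the sum of log2(FPKM + 1) over each library's transcripts above 0 and below their upper quartile. It was 28100 to 31300 at 3 months and 29696 to 32564 at 24 months. A fit with it can therefore take up part of the difference between ages and is no independent check. A rule of an unadjusted p under 0.05 together with a log2 fold change beyond 1 in either direction was added after seeing the data.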

Additional observations from a re-analysis of the deposited data

Results flagged for a closer look

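In 75 groups of 5 mice (each of the 8 genes, 5 transcripts and 12 circles at each age), 4 held a value that stood apart from the other 4 mice by Dixon's test. The limit used is one that 1 in 20 groups would pass by chance. The groups share mice and genes and are not independent, so whether chance gives this count was not tested. Slc9a3r1 in mouse 18 of 12 months was at 71.5 FPKM, with the next mouse at 48.3. Kl-202 in mouse 21 of 12 months was at 1.95 FPKM, with the next at 0.243. The annotated Slc34a1 transcript in mouse 32 of 24 months was at 791.7 FPKM, with the next at 606.3, and circRNA6324 of Slc34a1 in the same mouse was at 1986 FPKM, with the next at 1473.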

How the results depend on the processing

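None of the 8 genes passed the adjusted test in 63 settings over the 3 comparisons, which include each left-out mouse and a rule of unadjusted p and fold change added after seeing the data. Of 240 fold changes of the 8 genes under other settings 225 kept their sign, and of 240 without 1 mouse 236 did. Log2 fold changes turned at 24 against 3 months for Kl (0.0353 scaled to proximal tubule markers, 0.0458 with the library covariate), Slc34a1 (0.0518 scaled to proximal and 0.0067 to distal markers) and Slc20a2 (-0.1276 with annotated transcripts only). They turned at 12 against 3 months for Slc34a3 (0.0368, proximal), Kl (-0.0503, distal) and Slc20a2 (-0.0694, distal, and -0.1464, annotated only). They turned at 24 against 12 months for Slc20a1 (0.025 with TPM, 0.1957 distal) and, scaled to distal markers, for Kl (0.0413), Slc34a3 (0.0394), Fgfr1 (0.1004) and Pdzk1 (0.1063). The cause was not tested. Scaling to distal markers moved the median of genes of at least 1 FPKM to 0.19 in that comparison, from -0.03. Without 1 mouse, values turned for Slc20a1 (-0.2402 to 0.0981) and Slc20a2 (-0.0265 to 0.1376) at 24 against 12 months, Kl-202 at 12 against 3 months (-0.2816 to 0.076) and 24 against 12 months (-0.3532 to 0.0044), MSTRG.9807.2 at 12 against 3 months (-0.2223 to 0.4038), MSTRG.9807.1 at 24 against 12 months (-0.1858 to 0.0058), circRNA1253 (-0.0352 to 0.061) and circRNA8483 (-0.1444 to 0.0541).

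The count of all genes called depended on the setting. At 24 against 3 months 386 were called, with 824 scaled to proximal markers, 2 scaled to distal markers, 190 with annotated transcripts only, 678 with all 15 mice in 1 fit, 2 with the library covariate, 239 with the robust prior, 166 by the added rule and 109 to 411 without 1 mouse. At 12 against 3 months 79 were called, with 48 under median-ratio scaling, 5 scaled to distal markers, 27 with annotated transcripts only, 299 with all 15 mice, 12 with the library covariate, 24 with the robust prior, 158 by the added rule and 12 to 70 without 1 mouse. At 24 against 12 months 1 was called, with 3 at a pseudocount of 0.1, 0 at a minimum mean of 1 FPKM (1098 at an unadjusted p under 0.05 in limma), 0 with all 15 mice, 55 by the added rule and 1 to 7 without 1 mouse. Of all transcripts 24, 6 and 7 were called in the 3 comparisons, with 2 to 32, 2 to 25 and 2 to 16 without 1 mouse. A pseudocount of 0.1 gave 27 at 12 against 3 months and 11 at 24 against 12 months, where the minimum of 1 FPKM gave 4. Fgfr3, Abcc6 and Trpv5 were lost when scaled to distal markers (log2 fold changes 0.56, 0.71 and -0.54), with annotated transcripts only (0.31, 0.67 and -0.47) and with the library covariate (0.45, 0.61 and -0.65). Trpv5 is itself among the distal markers, so scaling to them is no independent check for it. Fgfr3 and Abcc6 were also lost with the robust prior (adjusted p = 0.0517 and 0.0526), and Fgfr3 with all 15 mice in 1 fit (0.0840). Of the 12 circles 0 to 1 were called without 1 mouse. No paired analysis was possible because the ages share no replicate numbers. The spread between 5 mice limits what could be detected.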
